A study of Mus musculus with 2 samples.

Results

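CTCF ChIP-seq peaks inside the introns of shorter genes were described in E14TG2a.4, a line of mouse embryonic stem cells taken from a male embryo of the 129/Ola strain. They were the peaks of the list called on both replicates together whose midpoint lay inside a protein-coding gene, in no exon, and more than 1000 bp from every protein-coding transcription start and gene 3′ end. The longest gene that contained the midpoint had to span under 200 kb. On the 19 autosomes 11055 of 38519 peaks met this rule, a share of 28.7%. Applied to the list of each replicate, it took 10232 of 35612 peaks in replicate 1 (28.7%) and 10271 of 36015 peaks in replicate 2 (28.5%). The other autosomal peaks were 18316 outside genes, 4244 in introns of genes of 200 kb or more (called very long genes here), 2276 near starts, 1856 in exons and 772 near gene ends.

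The study holds 2 libraries, biological replicates 1 and 2 of 1 group with no treatment named, precipitated with an antibody to CTCF, and no second condition. Per the labels, both come from the same established line, so they stand for 1 line and not for embryonic stem cells at large. Regions of the genome could therefore be compared with each other, and no test over conditions or samples exists. Intervals are at 95%, exact for counts, shares and medians and approximate for differences of shares. They cover counting error only, since neighbouring peaks are not independent replicates, and the spread between the 2 replicates is given as SD. No read counts are in the lists, and the sequencing depth is therefore unknown. Strength is column 7 of the authors' lists, taken here as a fold enrichment because of its values and the broad-peak format. It is the authors' value for the peak and not a read count.

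CTCF is a zinc-finger protein that binds a long, directional DNA motif and holds loop-extruding cohesin, so that pairs of motifs facing each other often anchor chromatin loops. Its intronic sites can insulate promoters from enhancers. CTCF bound downstream of an alternative exon is known to slow RNA polymerase II and to favour inclusion of that exon, as described for the lymphocyte phosphatase gene Ptprc. First introns are known to be rich in regulatory elements and tend to be the longest introns of a gene.

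A 19 bp motif was found without a starting model in the 1000 strongest peaks of the odd-numbered autosomes, and its most frequent bases read as follows, with bases present in at least 60% of sites in capitals.
CTCF motif: tggCCAccAGaGGGCgcta
The strongest motif-bearing peaks show how the sequence looked inside genes. They are printed 5′ to 3′ on the strand of the motif, from the mm9 genome, with the 19 bp match in capitals. The first 3 are from first introns and the next 3 from later introns.
Gna11: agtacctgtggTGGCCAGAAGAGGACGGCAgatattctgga
Chst8: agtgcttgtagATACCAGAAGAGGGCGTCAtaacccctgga
C85492: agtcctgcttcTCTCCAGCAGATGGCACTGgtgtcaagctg
Mapt: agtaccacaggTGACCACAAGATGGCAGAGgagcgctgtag
Arhgdia: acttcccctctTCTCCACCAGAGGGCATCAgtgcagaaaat
Gk5: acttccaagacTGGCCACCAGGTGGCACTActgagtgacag
The match in Gna11 lay at chr10:80999658-80999676, that in Chst8 at chr7:35534135-35534153 and that in C85492 at chr9:121894415-121894433, all on the minus strand and on the strand of their gene. The match in Mapt lay at chr11:104177210-104177228 on the plus strand, also that of its gene. In Arhgdia (chr11:120441188-120441206, plus strand) and Gk5 (chr9:96067748-96067766, minus strand) the motif pointed against the gene.

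First introns held fewer peaks per length than later introns, and weaker ones. An intron counted as first when it was the first of every protein-coding transcript whose intron held the position. By this definition 2385 peaks lay in first introns and 7778 in later introns. A further 719 lay in introns that were first in some transcripts and later in others, and 173 inside a gene but in no intron of a protein-coding transcript. Over the sequence that met the same rule, density was 19.9 peaks per Mb in first introns (19.1 to 20.7), against 24.8 per Mb in later introns (24.3 to 25.4). The ratio of first to later introns was 0.803 in the pooled list and 0.792 ± 0.00889 over the replicates (SD, n = 2). It was under 1 on each of the 19 autosomes, from 0.677 to 0.931.

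Density followed the length of the intron in both classes, as the plot of density by intron length, distance and gene span shows. In first introns it was 32.4 per Mb (23.3 to 44.0) where the intron was under 2 kb, and 15.5 per Mb (14.3 to 16.9) where it was over 50 kb. In later introns the same lengths had 31.3 per Mb (29.9 to 32.8) and 13.7 per Mb (12.3 to 15.3). Short introns of either class thus held more peaks per length than long ones, and the intervals of first and later introns overlapped in all 6 length classes. Peaks were placed by their midpoint and had a median width of 924 bp. A peak counted in a short intron can therefore reach beyond it into exons.

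**Figure D1:**
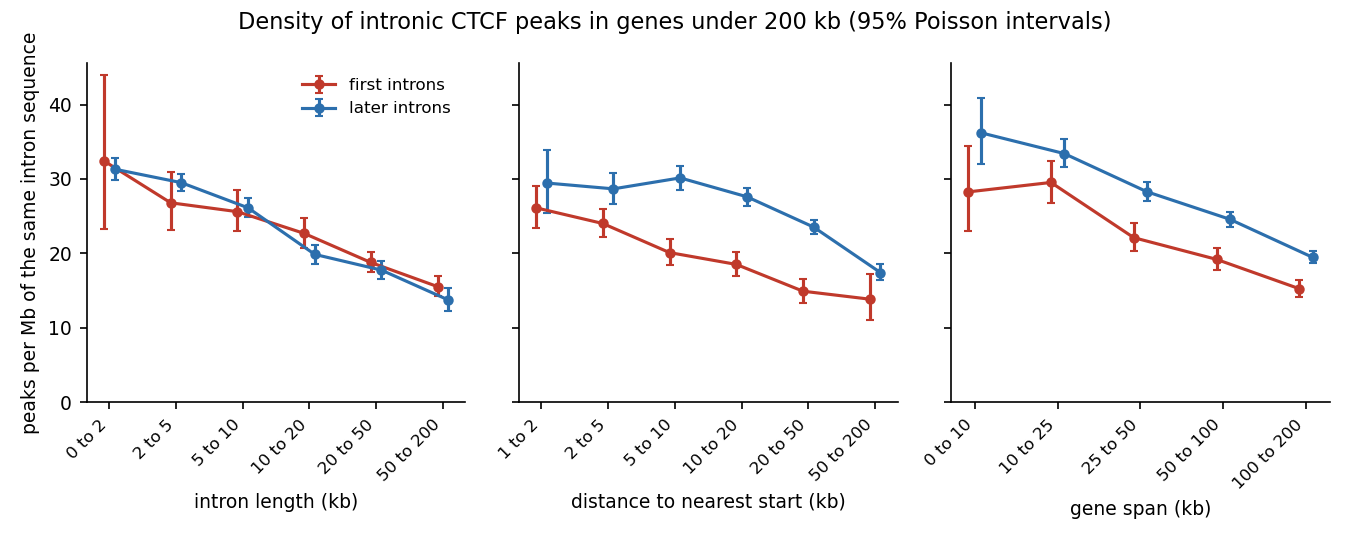
Peaks per Mb of intron sequence (y axis) in first introns and later introns of genes under 200 kb, by intron length, by distance to the nearest protein-coding start and by gene span (x axes, kb), with 95% Poisson intervals in the pooled list. The classes run together when split by intron length, from 32.4 and 31.3 per Mb in the shortest to 15.5 and 13.7 per Mb in the longest introns. Split by distance or span, first introns have the lower value in each bin, with overlapping intervals at 1 to 2 kb and over 50 kb from the start and in genes under 25 kb.

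The density ratio of first to later introns depended on how later introns were weighted, and the cause of the lower density was not tested. When later introns were weighted to the intron lengths of first introns, the ratio was 1.06, and when they were weighted to length and distance from the start together it was 0.996 (0.982 in replicate 1 and 0.980 in replicate 2). Weighted to distance alone it was 0.730. Density fell away from the start in first introns, with 26.1 per Mb at 1 to 2 kb and 13.8 per Mb beyond 50 kb. In later introns it was 29.5 per Mb at 1 to 2 kb, 30.1 per Mb at 5 to 10 kb and 17.4 per Mb beyond 50 kb. These weightings were chosen after the values were seen.

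Counted along the longest transcript, introns numbered 1 had 19.9 peaks per Mb, introns numbered 2 had 21.6 and introns numbered 3 had 22.9. From intron 4 on the densities were 25.02, 24.9 and, for intron 6 or later, 26.5 per Mb. Intron 2 thus stood between the first intron and the rest. Each interval overlapped that of the next intron, while the interval of intron 1 (19.1 to 20.7) lay below that of intron 3 (21.5 to 24.3). Within introns of at least 10 kb, the 20% of the length nearest the 5′ end of first introns had 19.9 peaks per Mb, the next 20% 16.5 and the last 20% 21.3. In later introns these stretches had 17.4, 17.0 and 19.2 per Mb.

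**Figure D2:**
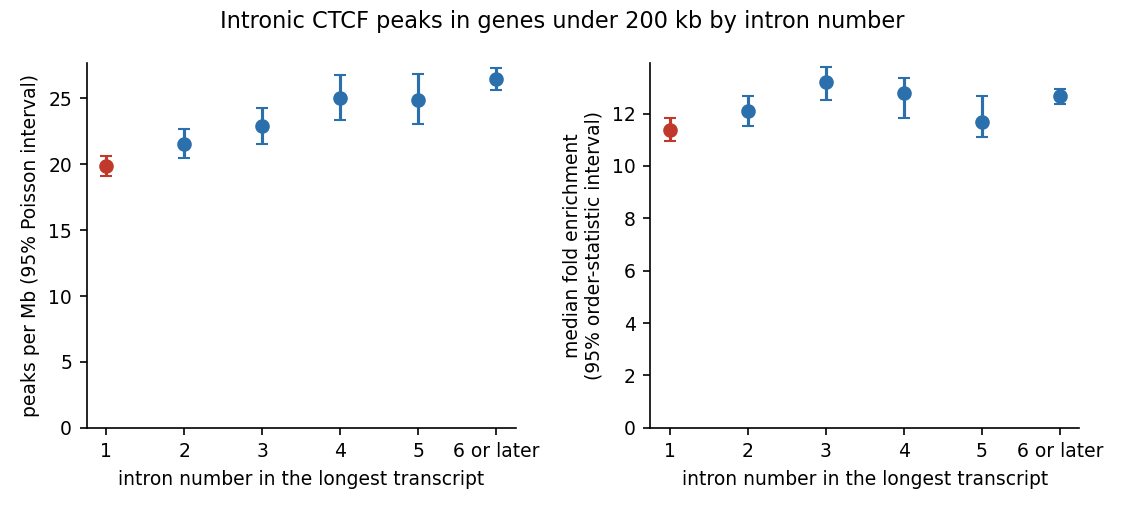
Peaks per Mb (left) and median fold enrichment (right) by the number of the intron in the longest transcript (x axis), pooled list, genes under 200 kb; bars are 95% Poisson and order-statistic intervals. Intron 1 (red) is lowest on both, at 19.9 peaks per Mb and a median of 11.39, and introns numbered 6 or later reach 26.5 per Mb.

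The strength of peaks in first introns was lower in each list. Median fold enrichment was 11.39 in first introns (11.11 to 11.82) and 12.61 in later introns (12.38 to 12.80) in the pooled list. The medians were 13.2 in first introns and 14.3 in later introns in replicate 1, and 13.4 in first introns and 14.6 in later introns in replicate 2. The ratio of first to later introns was 0.903 pooled and 0.923 ± 0.00325 over the replicates (SD, n = 2). The distributions overlapped for most of their range, with the middle 50% of peaks between 7.31 and 16.6 in first introns and between 8.02 and 17.6 in later introns. Weighted to the intron length and distance of first introns, later introns gave a ratio of 0.941, so the difference in strength was smaller but kept its direction.

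**Figure D3:**
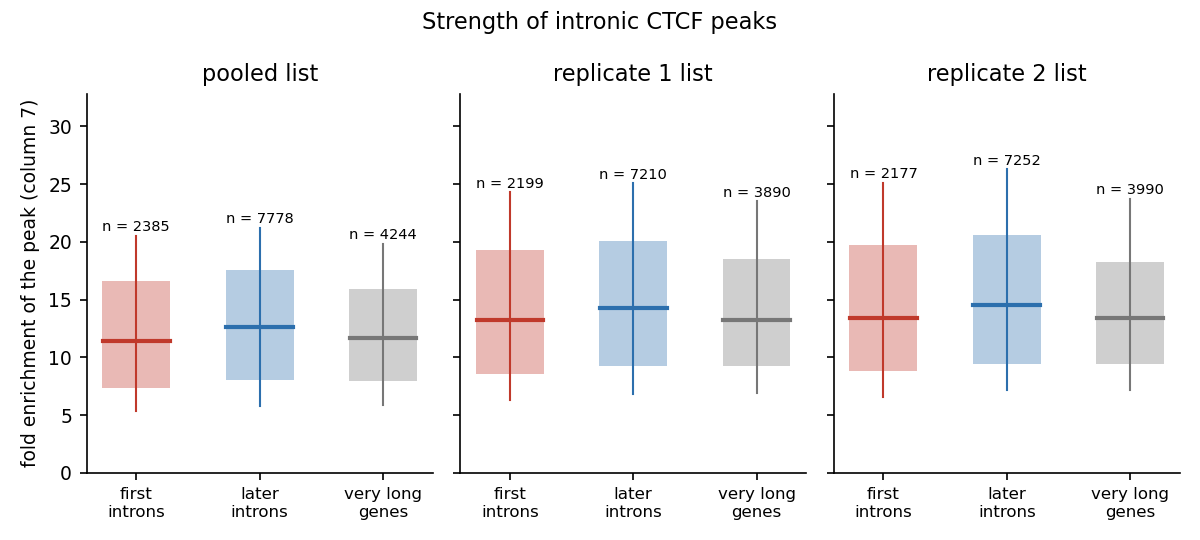
Fold enrichment of peaks (y axis, authors' values) in first introns, later introns and very long genes in the pooled list and in each replicate. Lines mark medians, boxes the middle 50% and whiskers the 10th to 90th percentile; medians of first introns (11.39, 13.2 and 13.4) lie below those of later introns (12.61, 14.3 and 14.6) in all 3 panels.

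The same direction was seen inside single genes. Of 760 genes with peaks in both classes, the median of the first-intron peaks was lower in 429 and higher in 328, with 3 equal. The median ratio over these genes was 0.908 in the pooled list, 0.898 in replicate 1 and 0.904 in replicate 2. By chromosome the strength ratio was under 1 on all but 3 of 19 autosomes, with a median of 0.923. When all autosomal peaks were cut into quintiles by strength, first introns made up 26.9% of first and later introns together in the weakest quintile (24.99 to 28.8%) and 20.4% in the strongest (18.8 to 22.2%). A first-intron peak of the pooled list was also found in both replicates slightly less often, in 83.6% against 86.3% of later-intron peaks, a difference of −2.69 percentage points (−4.39 to −1.06).

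The strongest first-intron peak lay in Tjp3, which encodes a tight junction scaffold, at chr10:80750144-80752708. Its fold enrichment was 38.0 in the pooled list, 52.0 in replicate 1 and 58.5 in replicate 2, and it ranked 5 among all autosomal peaks. It lay 2.59 kb from the start in the first of 22 introns. Gpr153, an orphan G protein-coupled receptor gene, had 34.6 pooled, 44.4 in replicate 1 and 50.8 in replicate 2 at 2.14 kb from the nearest start. Tmem194, a gene for a transmembrane protein, followed with 33.5, 37.5 and 49.7. Neither Tjp3 nor Gpr153 held a match over the motif threshold of 18.5 bits, their best scores being 10.90 and 10.99 bits.

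The next strongest first-intron peaks lay in genes of varied function. The peak of Gna11, which encodes a Gq-class alpha subunit, had 32.9 pooled, 48.0 in replicate 1 and 44.8 in replicate 2, and carried the motif printed above at 20.6 bits. Th, the gene of tyrosine hydroxylase, the rate-limiting enzyme of catecholamine synthesis, had 30.7 pooled, 35.6 in replicate 1 and 44.3 in replicate 2 in a first intron of 33.5 kb. C1qtnf9, Chst8 and C85492, with pooled values of 30.5, 30.4 and 29.96, were also among the 10 strongest, as was the protocadherin peak described below. Each was high in both replicates.

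The strongest later-intron peak was that of Ndst1, a heparan sulfate sulfotransferase gene, in intron 3 of 14. It had 41.2 pooled, 60.2 in replicate 1 and 66.0 in replicate 2 and ranked 3 among all autosomal peaks. Fam129b had 35.9 pooled (49.1 and 56.3 in the replicates) and Nhej1, a factor of non-homologous end joining, had 35.03 (45.2 and 50.8). Mapt, which encodes the microtubule protein tau, had 34.5 (42.5 and 49.4) in intron 6 of 9. The remaining 6 of the 10 strongest lay in Wisp2, C2cd3, Ccdc60, 3110082I17Rik, Dram1 and Arhgdia, between 34.3 and 33.5. The midpoint of the Arhgdia peak lay in an intron of only 0.222 kb, and the peak itself (chr11:120440651-120441828) reached beyond that intron.

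The members were unevenly spread over genes. Of 15923 genes under 200 kb with intron sequence that met the rule, 6099 held at least 1 peak (38.3%). For first introns the count was 1783 of 11602 genes (15.4%), and for later introns 4741 of 14557 (32.6%). One peak was held by 3517 genes, 2 by 1379, 3 or 4 by 916, 5 to 9 by 272 and 10 or more by 15. Genes with a peak had a median span of 42.8 kb, against 13.3 kb for genes without.

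The most peaks, 14, lay in the first intron of Pcdhgc5, whose gene model spans the gamma protocadherin cluster of chromosome 18 over 168 kb. Clustered protocadherins are cell-surface adhesion proteins whose alternative first exons have promoters known to bind CTCF. Median strength there was 21.0, and the highest peak had 33.5 pooled, 45.2 in replicate 1 and 44.6 in replicate 2. B3galtl, a glucosyltransferase gene for protein O-glycans, had 13 peaks, 2 in first and 11 in later introns, at 165 per Mb of its own introns. Emid2 had 12, Myh14, a non-muscle myosin heavy chain gene, 11 and Glt1d1 11, with median strengths of 17.1, 15.9 and 10.3. Myh14 had the highest density of these, at 205 per Mb.

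Peaks of the same gene lay a median of 10.4 kb apart (quartiles 4.37 and 22.3 kb, 4956 neighbouring pairs). Among 1357 pairs of neighbouring motif-bearing peaks, 726 pointed the same way (53.5%, 50.8 to 56.2%). Motifs pointed towards each other in 317 pairs (23.4%) and away from each other in 314 (23.1%). Facing and opposed pairs were thus similarly common within a gene.

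Shorter genes were denser in intronic peaks than very long ones. Density was 23.4 per Mb (23.0 to 23.8), against 11.6 per Mb in introns of very long genes (11.2 to 11.9). The ratio was 2.02 pooled, 2.04 in replicate 1 and 2.00 in replicate 2. Within shorter genes it was also lower at larger spans, from 28.3 per Mb in genes under 10 kb to 15.3 per Mb in genes over 100 kb for first introns, and from 36.2 to 19.5 per Mb for later introns. Across the 200 kb limit itself there was no step, with 15.5 per Mb in genes of 180 to 200 kb and 14.96 per Mb in genes of 200 to 220 kb. At the limit of 1000 bp from a start, 353 intronic peaks lay up to 500 bp beyond it with a median fold enrichment of 12.2. On its inner side 352 intronic peaks lay up to 500 bp from it with 10.5. For both counts the distance to gene ends was also relaxed to 500 bp, so not all of the 353 need be members. Median strength was 12.4 in shorter genes and 11.7 in very long genes, a ratio of 1.06 in the pooled list and in each replicate. In very long genes the first and later introns had similar values, 11.4 and 11.99 peaks per Mb with medians of 11.8 and 11.7.

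On the even-numbered autosomes, which played no part in finding the motif, 42.6% of members held a match (41.2 to 44.0%), against 38.7% in very long genes (36.6 to 40.8%). The difference was 3.89 percentage points (1.36 to 6.39), and it counts motifs with and without the downstream run described below. The threshold, reached by 1% of flanking windows as long as the peaks, is strict for windows of this size. First introns had 41.1% and later introns 42.9%, a difference of −1.74 points whose interval ran from −5.09 to 1.65, so it was not distinguished from 0 by counting error. On the same autosomes, members with the motif had a median fold enrichment of 13.5 (13.2 to 13.9) and members without it 11.25 (10.97 to 11.7). The median GC content was 46.0% in first-intron and 47.0% in later-intron peaks. A CpG ratio of at least 0.6, the level of CpG islands, was found in 3.52% of first-intron and 2.31% of later-intron peaks, a difference of 1.21 points (0.450 to 2.08).

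Over all distances from the start, the motif pointed along the gene more often in first introns than in later ones. It lay on the strand of the host gene in 547 of 997 motif-bearing first-intron peaks (54.9%, 51.7 to 58.0%), against 1732 of 3414 in later introns (50.7%, 49.0 to 52.4%). The difference was 4.13 points (0.607 to 7.63). By distance from the nearest start, the shares at 1 to 5 kb were 57.6% in first introns (52.5 to 62.6%) and 52.3% in later introns (47.1 to 57.5%). At 5 to 20 kb they were 53.5% in first introns (48.7 to 58.3%) and 54.2% in later introns (51.7 to 56.7%), so first introns were not higher there. Beyond 20 kb they were 52.4% in first introns (44.99 to 59.7%) and 46.9% in later introns (44.4 to 49.4%). The share over all first introns was 55.3% in replicate 1 and 55.2% in replicate 2, and it exceeded 50% on 15 of 19 autosomes. It was found among weaker peaks: at or below the median strength of autosomal peaks the share was 60.3% (55.8 to 64.8%), and above it 50% (45.7 to 54.3%). Later introns had the same direction, with 53.2% at or below the median (50.6 to 55.8%) and 49.0% above it (46.8 to 51.2%). In very long genes the share was 58.3% in first introns (53.2 to 63.3%) and 48.7% in later introns (45.7 to 51.6%).

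Many motifs were followed by the same sequence. The most frequent 10-base run at a fixed place within 50 bp downstream of the motif on the autosomes was the following.
Downstream run: TGAGCCACCA
Its first base was base 21 after the motif. Among 15481 motif-bearing autosomal peaks 1005 had the run exactly, and 1901 had it with up to 2 mismatches and 3 bp of shift (12.3%), against 82 (0.530%) at the same place 200 bp further on. The stretch matches the B2 short interspersed repeat, which is known to have spread CTCF motifs through rodent genomes. The match is a description, since no repeat annotation was used. These members show it, with motif and run in capitals.
Gsta4: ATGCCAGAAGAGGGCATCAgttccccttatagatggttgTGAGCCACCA
Slc3a2: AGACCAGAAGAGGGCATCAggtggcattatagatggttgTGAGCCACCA
Myst2: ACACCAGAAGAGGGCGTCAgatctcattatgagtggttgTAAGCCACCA
Gsta4 (chr9:78041927-78041945 on the minus strand, in a gene on the plus strand) and Slc3a2 (chr19:8793767-8793785 on the minus strand, as its gene) are first-intron sites of 23.1 and 21.7 fold enrichment. Myst2 (chr11:95160273-95160291 on the plus strand, in a gene on the minus strand) is a later-intron site of 27.01. They are the strongest of their class with at most 1 mismatch in the run, while most such peaks were weak.

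Among motif-bearing members 809 of 4808 carried the run (16.8%, 15.8 to 17.9%), against 7.54% in very long genes (6.32 to 8.91%) and 11.1% outside genes (10.4 to 11.8%). The share was 19.1% in first introns (16.7 to 21.6%) and 15.96% in later introns (14.8 to 17.2%). Over all autosomes, 3999 of 11055 members and 1545 of 4244 peaks in very long genes held a motif without the run. Members thus had no higher share of motifs without the run than very long genes. Members with the run had a median fold enrichment of 7.46, against 14.6 for motif-bearing members without it. In the weakest quintile of peaks 46.8% of motif-bearing members carried it, and in the strongest 3.42%. The plot of the downstream sequence shows this steady fall.

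**Figure D4:**
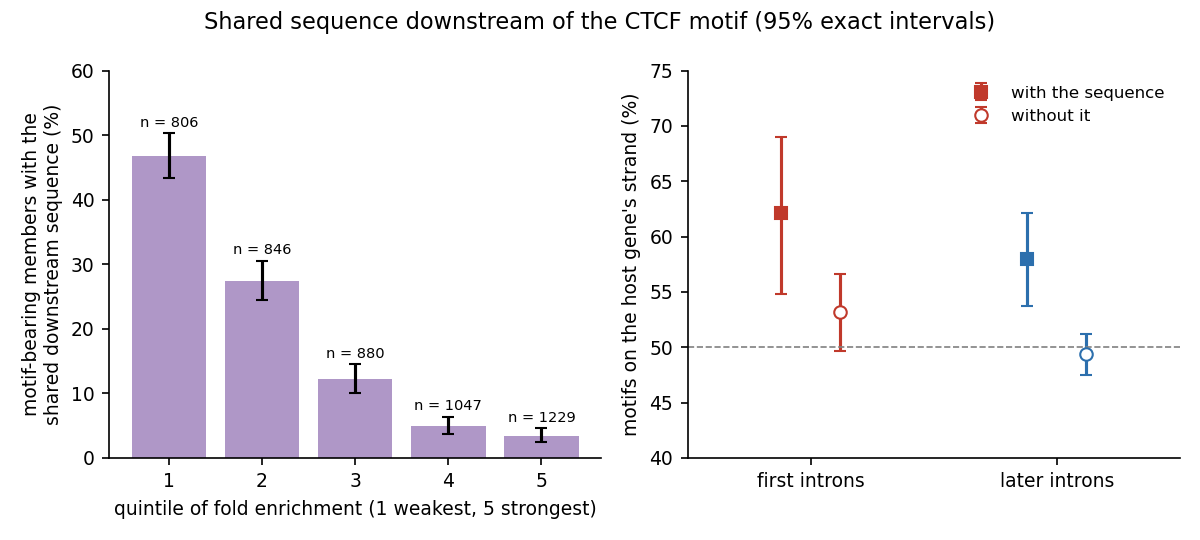
Left, share of motif-bearing members with the downstream run (y axis, %) by quintile of fold enrichment (x axis), which falls from 46.8% to 3.42%. Right, share of motifs on the strand of the host gene (y axis, %) for members with the run (squares) and without it (circles) in first and later introns; bars are 95% exact intervals and the dashed line marks 50%.

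The orientation of motifs differed between members with and without the run. With it, the motif lay on the strand of the gene in 62.1% of first-intron peaks (54.8 to 69.0%, 118 of 190) and 58.0% of later-intron peaks (53.7 to 62.2%, 316 of 545). Without it the shares were 53.2% in first introns (49.6 to 56.6%) and 49.4% in later introns (47.5 to 51.2%). Over all members they were 59.6% with the run and 50.5% without. In very long genes as a whole the shares were 50.8% with the run (41.7 to 59.8%) and 51.3% without it (48.7 to 53.8%). In their first introns the share was 61.8% with the run (43.6 to 77.8%, 21 of 34). Without it the share there was 58.0% (52.6 to 63.2%, 200 of 345). In their later introns the share was 50% with the run (38.3 to 61.7%, 38 of 76) and 48.6% without it (45.5 to 51.6%). The with-run interval of 41.7 to 59.8% included the 59.6% of members with the run, so a difference from members was not shown. The part of the run in the orientation of these motifs was not tested beyond this split. With run-bearing peaks left out, the strength ratio of first to later introns was 0.924 and the density ratio 0.795.

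The gene lists below were counted for members in their genes, beside 38.3% of all genes and 23.4 peaks per Mb. The plot of density by gene list runs from 34.2 per Mb to 13.6 per Mb. Of 32 Polycomb and Trithorax genes 16 held a member, with 34.2 peaks per Mb (23.8 to 47.5). Rnf2, the ubiquitin ligase of Polycomb repressive complex 1, had a first-intron peak of 24.5 pooled, 26.9 in replicate 1 and 33.4 in replicate 2. Kdm2b, which recruits that complex to CpG islands, had 8 members, the highest with 24.3 (30.9 and 24.3), and Cbx7 had 23.2 (27.2 and 27.7) in its first intron. Ezh2, the methyltransferase of Polycomb repressive complex 2, and Rybp held none.

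Chromatin remodellers had members in 23 of 33 genes at 30.3 per Mb (22.9 to 39.3). The strongest were in Mta3 (24.9) and Mta1 (24.8) of the NuRD complex, in Chd6 (22.5) and in the first intron of Baz1b (21.0), and Ep400 and Arid1a had none. Myosins and kinesins, which move along actin and microtubules, had 136 members in 45 of 82 genes at 30.9 per Mb (25.9 to 36.6). Of these members 8 lay in first introns, at 9.83 per Mb, against 35.9 per Mb in later introns. Over all genes these densities were 19.9 and 24.8 per Mb. Chromatin remodellers went the other way, with 51.9 per Mb in first introns (17 peaks) and 25.4 per Mb in later introns (36 peaks). They were not alone in this, since Wnt, DNA repair and pluripotency genes, among others, also had the higher density in first introns. Most lists had it in later introns. These values were not weighted to intron length. The list of myosins and kinesins was taken by name and also holds Myom1, a sarcomere protein that is no motor. Myh14 (26.3), Kif14 (24.8) and Myo10 (24.8) held strong peaks, and Myo9a none.

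Genes of pluripotency were close to all genes, with members in 9 of 25 and 21.1 per Mb (12.04 to 34.2). Esrrb, an orphan nuclear receptor of the naive state, had 4 members, the strongest in intron 5 with 22.4 pooled, 29.6 in replicate 1 and 28.3 in replicate 2. Tet1, which oxidises methylcytosine, had 18.15 in its first intron, and Nr5a2 had 16.04 and Lifr, the receptor of leukaemia inhibitory factor, 15.8. Stat3 and Il6st, which transmit the same signal, held none. Genes of FGF and MAPK signalling were at the low end, with members in 13 of 36 and 13.6 per Mb (8.21 to 21.3). The strongest of these were in Fgfr1 (18.6), Sos1 (18.01), Fgf2 (17.6) and Gab1 (17.3), and Braf and Rasa1 had none. The Fgf2 peak lay in no intron of a protein-coding transcript.

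The list of CTCF and cohesin genes, which also counts Zfp143, had members in 7 of 13 genes at 14.2 per Mb (6.48 to 26.9). Zfp143, a zinc-finger factor that often shares sites with CTCF, had 24.5 in intron 10, and Ctcf itself had 16.3 in intron 2 (15.3 in replicate 1 and 21.7 in replicate 2). Notch and Hedgehog genes had members in 15 of 25 at 34.2 per Mb (22.7 to 49.5), among them Sufu (25.7), Notch3 (21.8) and Smo (21.1). Wnt genes had them in 24 of 42 at 25.5 per Mb, with Lrp5 at 22.5, and TGF-beta and BMP genes in 21 of 37 at 22.8 per Mb, with Smad6 at 23.2. Genes of DNA methylation and demethylation had 8 of 16 and 27.8 per Mb, with Mbd2 at 20.4 and Dnmt3b at 11.1. Tet3 and Hells had none.

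Structural and receptor families differed more in how many genes held a peak than in density. Collagens had one in 28 of 35 genes at 24.2 per Mb, the strongest in Col17a1 (27.4), Col16a1 (26.2) and Col18a1 (24.9). Receptor tyrosine phosphatases had one in 11 of 12 genes at 27.4 per Mb, with Ptprn at 25.2 and Ptprf at 19.3; the gene without was Ptprcap, which is no phosphatase and was taken by its name. Integrins and laminins had 23 of 37 genes at 21.1 per Mb, led by Itgb1 (23.5). Voltage-gated channels had 21 of 36 at 20.8 per Mb, led by the beta subunit Kcnab2 (26.6) and Cacna1i (24.5), and Scn1a and Scn3a had none. Semaphorins, plexins and ephrins had 19 of 37 at 19.7 per Mb, led by Efna3 (27.1). The median gene span was 97.4 kb for the collagens and 93.6 kb for the receptor tyrosine phosphatases, against 21.0 kb for all genes counted.

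The remaining lists were mostly families of regulators and housekeeping genes. Zfp genes had one in 66 of 330 (20.0%) at 18.4 per Mb (15.1 to 22.2), with a median span of 15.2 kb. Proteasome and ribosomal genes had one in 22 of 97 (22.7%) at 28.5 per Mb, with a median span of 5.78 kb, and this list, taken by name, also holds S6 kinase genes such as Rps6kl1 (23.4) and Rps6ka1 (22.9). SOX and FOX genes had one in 8 of 30 at 20.7 per Mb, led by Foxj2 (30.7). Nuclear receptors had one in 18 of 34 at 24.1 per Mb, led by Nr2e3 (31.0). The Nr2e3 peak lay in no intron of a protein-coding transcript. DNA repair genes had a peak in 18 of 39 at 17.96 per Mb, led by Xrcc1 (23.5). Imprinted genes had one in 12 of 31 at 19.3 per Mb, led by Ano1 (27.1). The intervals of density included 23.4 per Mb for all lists but 4. Those were Polycomb and Trithorax genes and myosins and kinesins above it, and Zfp genes and FGF and MAPK genes below it. The intervals cover counting error only and were not corrected for the number of lists. Gene span and intron length, with which density varied, were not matched between lists.

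**Figure D5:**
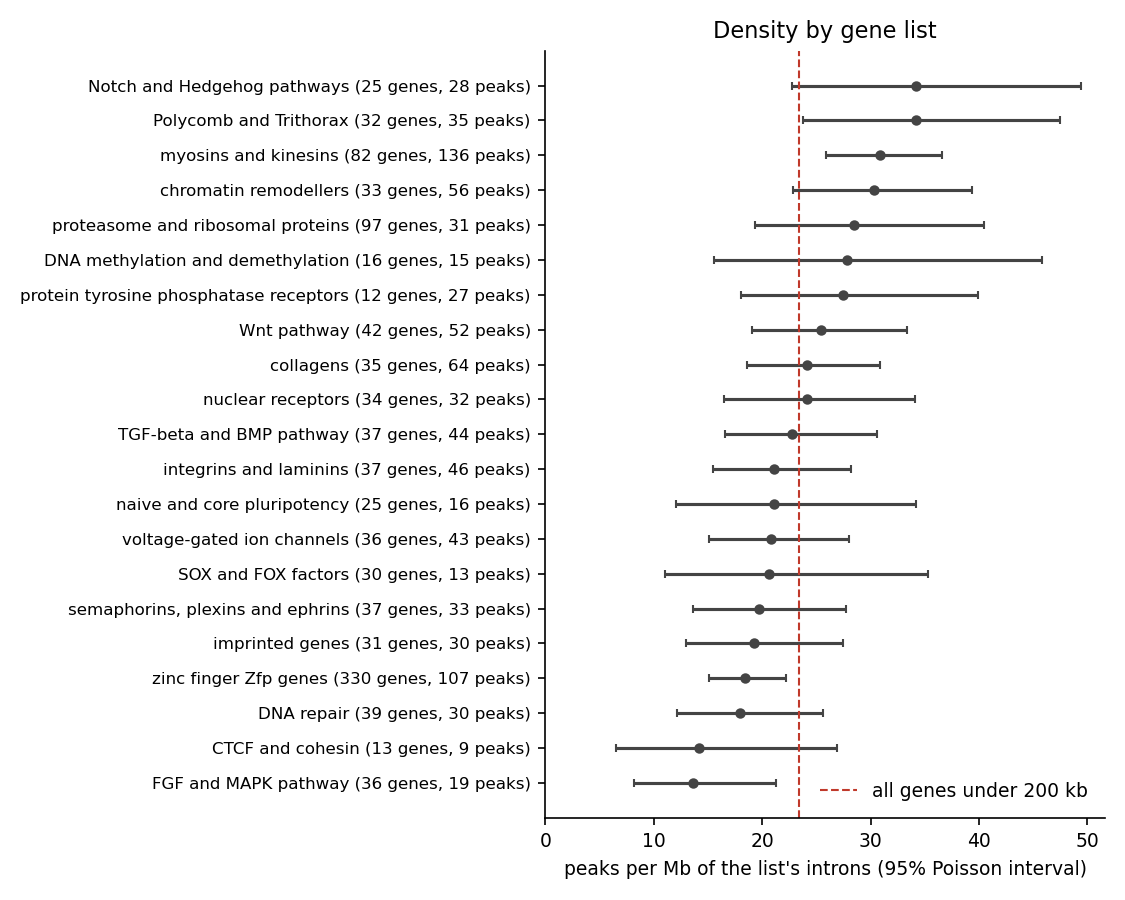
Intronic CTCF peaks per Mb of intron sequence (x axis) for 21 gene lists, with 95% Poisson intervals; the number of genes and peaks of each list stands beside its name (y axis). The dashed line marks all genes under 200 kb at 23.4 per Mb, and most intervals cross it.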

How the data were processed

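Chromatin bound by CTCF was sequenced from 2 biological replicates of 1 group of E14TG2a.4 cells. The authors deposited broad-peak lists on mm9 for each replicate and for both together, per the file headers and descriptions. Column 7 of the deposited lists was taken as a fold enrichment, a ratio, from its values and the broad-peak format. It starts at 2.81 in the pooled list, and what it is relative to is not stated. Which caller, aligner and filters they used is not given in the sources used here. Lists on mm10 were not used, because gene models with introns were at hand for mm9 alone.

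Midpoints of columns 2 and 3 were placed in GENCODE vM1 gene models (15923 genes with usable introns) on the NCBIM37 sequence, which is mm9. Densities were taken over bases that meet the same rule, gaps left out. Intervals were exact Poisson, Clopper-Pearson or order-statistic, and Newcombe for differences. The motif was found by expectation maximisation within 100 bp of midpoints and searched over the whole peak, at most 500 bp either side. A pooled peak was in a replicate when at least 1 bp overlapped. Counting and motif search, but not the intervals, were tested on simulated data (Python 3.11.15, numpy 2.4.6, scipy 1.17.1).

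The members and gene lists were chosen with earlier results of these data known. Named are the 10 strongest peaks of first and of later introns, the 5 genes with most peaks, up to 4 genes per list with the strongest peak and up to 2 of the longest without, not all of which are printed, and some of which are not reported here. Printed sequences are among the strongest motif-bearing peaks, and none is from chromosome 18. The downstream run and the weightings by length and distance were added after the values were seen. Alternatives covered exons, starts, distances, host gene, span limit, peak set, motif settings, summary and each replicate alone.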

Additional observations from a re-analysis of the deposited data

How the results depend on the processing

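No paired analysis was possible because the study has 1 group. No test over samples exists, so a value is called moved below when it changed by more than the spread between the 2 replicates, which is narrow with n = 2; the cause of each change was not tested unless named. The number of members stayed within 1.5 times under all alternatives run. The density ratio of first to later introns, 0.803, was 0.784 at 2000 bp from starts and ends, 0.686 at 5 to 50 kb from starts, 0.789 for peaks of fold enrichment of at least 5 and 0.778 for peaks in both replicates. It was 0.730 weighted to distance, 0.996 weighted to distance and intron length, and turned to 1.06 weighted to intron length; each replicate alone gave 0.786 to 0.799. The strength ratio of first to later introns, 0.903, stayed under 1 in all settings. It was 0.907 with the starts of every transcript, 0.910 at 2000 bp, 0.907 inside single genes, 0.900 by the longest transcript, 0.920 at a span limit of 100 kb, 0.910 at 300 kb, 0.900 at 5 to 50 kb from starts, 0.923 from fold enrichment 5 on, 0.930 for peaks in both replicates and 0.936 by the mean of log2 values. It was 0.900, 0.952 and 0.941 weighted to distance, intron length and both, 0.924 without run-bearing peaks and 0.921 to 0.926 in single replicates. The motif share of first minus later introns, −1.74 points, turned to 0.759 at a span limit of 100 kb and to 0.829 at 5 to 50 kb from starts. It was −2.40 with every start, −0.192 at 2000 bp, −0.431 at the 0.1% threshold, −2.86 at 5%, −2.63 within 50 bp, and −2.40 to −2.02 in single replicates. The density ratio of shorter to very long genes, 2.02, was 2.06 inside single genes, 1.91 and 2.12 at span limits of 100 and 300 kb, 1.98 from fold enrichment 5 on, and 2.00 to 2.04 in single replicates. Their strength ratio, 1.06, was 1.05 at 2000 bp, 1.05 inside single genes, 1.07 from fold enrichment 5 on, 1.07 for peaks in both replicates, 1.02 by the mean of log2 values, and 1.06 in each replicate. The share of motifs on the sense strand over all members, 52.0%, was 52.1% with every start, 51.7% at 2000 bp, 52.1% inside single genes, 52.9% and 51.8% at 100 and 300 kb, 51.7% from fold enrichment 5 on and 51.5% for peaks in both replicates. It was 51.1% and 51.7% at the 0.1% and 5% motif thresholds, 50.9% within 50 bp, 50.5% without run-bearing peaks and 51.8% in each replicate. The weightings and the removal of run-bearing peaks were chosen after seeing the data. Depth could not be assessed, since the lists hold no read counts.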
